A study of Mus musculus with 75 samples.

Results

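The acute phase proteins examined here are secreted defence and transport proteins, measured as messenger RNA in the liver and epididymal white fat of mice. They were 10 genes named by symbol, in a list made with earlier results of these data known. The list held the serum amyloid A genes Saa1, Saa2 and Saa3, lipocalin 2 (Lcn2), and the orosomucoids Orm1 and Orm2. It also held haptoglobin (Hp), hepcidin (Hamp), serum amyloid P (Apcs) and the fibrinogen beta chain (Fgb). Of these, 9 of 10 were among the 19147 genes with a probe set of 1 symbol, each with 1 probe set, and Saa1 was not analysed here. Every mouse was a male of strain C57BL/6, either lacking the cannabinoid receptor 1 gene (CB1-/-, called knockout) in all cells or a littermate control (called wild-type). For 14 weeks from an age of 2 months they ate chow, which held 13% of its energy as fat, or a diet that held 59.4%, the high-fat diet. They were then gavaged with vehicle or AM251, an inverse agonist of that receptor, at 10 mg per kg on each of 2 days. Vehicle mice also received the gavage, so that no group is an undisturbed animal. Tissue, diet, genotype and treatment made 16 groups of 5 arrays each, except high-fat knockout vehicle liver with 4, and high-fat knockout vehicle fat and chow knockout AM251 fat with 3 each.

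Acute phase proteins are made mainly by hepatocytes, whose output of them changes within hours of infection or injury. Interleukin-6 acts on these genes through the transcription factor STAT3, while interleukin-1 and tumour necrosis factor act through NF-kB and the C/EBP factors. Fat also makes several of them: adipocytes secrete haptoglobin, orosomucoid and lipocalin 2, and Saa3 is a serum amyloid A gene expressed outside the liver by adipocytes and macrophages. Hepcidin differs from the others in that it is controlled both by inflammation, through STAT3, and by iron, through bone morphogenetic protein (BMP) signalling, and it lowers iron export from cells.

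The data were 39 liver and 36 fat arrays, with median intensities of 25.85 to 28.67 in liver and 44.29 to 48.04 in fat. Each array's mean correlation with the others of its tissue was 0.964 to 0.991 in liver, lowest for chow knockout vehicle arrays 17 and 15, and 0.977 to 0.990 in fat. Tissue labels matched their markers: the summed intensity of 8 hepatocyte genes was 125000 to 147700 in liver and 257.6 to 853.4 in fat, and that of 7 adipocyte genes was 302.8 to 1068 in liver and 58680 to 73310 in fat. In fat, the epididymis gene Adam7 read 9.15 on high-fat wild-type vehicle array 3 and 10.23 on AM251-treated high-fat wild-type array 36, and at most 5.60 on the other 34 arrays. Lcn5, another epididymis gene, read 12.99 on array 36 and 9.54 on array 37 of that AM251 group, 8.29 on AM251-treated high-fat knockout array 49, and 6.66 to 7.46 on the other 33 arrays. The results below were repeated without each array in turn. The targeted gene, Cnr1, was not called lower in knockout than in wild-type vehicle arrays, with a log2 difference of -0.05 in chow liver and of -0.33 (adjusted p = 0.794) in chow fat, and it was higher in AM251-treated high-fat knockout fat (0.91, adjusted p = 0.0498). Where its probes lie relative to the deleted part is not known, so this checks nothing about the labels. Sample numbers in the labels were taken as separate mice, and p-values measure the spread between these samples.

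The promoters of the members whose values varied most are shown with motifs of the regulators named above. The 250 bases upstream of the annotated start are printed 5′ to 3′ from RefSeq (GRCm38.p6), for the 4 members of largest spread in liver and for Hamp, the member with both kinds of control, with its neighbouring copy Hamp2. Capitals mark matches to a C/EBP motif (TTGCNNAA), a STAT motif (TTCNNNGAA) or a BMP response element (GGCGCC), searched on both strands. The sequences are those of Saa2 (chr7:46751583-46751832, plus strand), Saa3 (chr7:46715677-46715926, minus strand), Lcn2 (chr2:32387740-32387989, minus strand), Orm2 (chr4:63362199-63362448, plus strand), Hamp (chr7:30944030-30944279, minus strand) and Hamp2 (chr7:30924182-30924431, minus strand).
Saa2: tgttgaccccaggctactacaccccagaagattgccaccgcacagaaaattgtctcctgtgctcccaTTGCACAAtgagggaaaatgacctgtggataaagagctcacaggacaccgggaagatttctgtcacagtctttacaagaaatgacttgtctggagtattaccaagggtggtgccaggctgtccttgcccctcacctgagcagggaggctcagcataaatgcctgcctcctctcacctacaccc
Saa3: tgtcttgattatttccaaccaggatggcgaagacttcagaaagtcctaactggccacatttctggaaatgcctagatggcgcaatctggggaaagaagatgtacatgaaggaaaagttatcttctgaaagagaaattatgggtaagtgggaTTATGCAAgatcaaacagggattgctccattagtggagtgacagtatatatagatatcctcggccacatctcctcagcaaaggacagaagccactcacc
Lcn2: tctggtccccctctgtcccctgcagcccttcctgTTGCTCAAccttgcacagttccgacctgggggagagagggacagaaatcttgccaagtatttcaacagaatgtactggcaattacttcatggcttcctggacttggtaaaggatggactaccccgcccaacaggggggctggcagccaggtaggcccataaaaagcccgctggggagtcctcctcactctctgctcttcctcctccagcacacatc
Orm2: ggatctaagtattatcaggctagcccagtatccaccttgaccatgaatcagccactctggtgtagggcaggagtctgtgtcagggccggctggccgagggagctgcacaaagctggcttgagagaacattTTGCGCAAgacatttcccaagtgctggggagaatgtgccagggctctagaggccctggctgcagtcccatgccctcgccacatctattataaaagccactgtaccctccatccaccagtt
Hamp: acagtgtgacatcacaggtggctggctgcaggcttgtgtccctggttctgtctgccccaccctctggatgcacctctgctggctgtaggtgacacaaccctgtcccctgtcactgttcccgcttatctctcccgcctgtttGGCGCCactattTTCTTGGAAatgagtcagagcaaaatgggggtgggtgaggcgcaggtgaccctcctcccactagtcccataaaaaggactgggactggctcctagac
Hamp2: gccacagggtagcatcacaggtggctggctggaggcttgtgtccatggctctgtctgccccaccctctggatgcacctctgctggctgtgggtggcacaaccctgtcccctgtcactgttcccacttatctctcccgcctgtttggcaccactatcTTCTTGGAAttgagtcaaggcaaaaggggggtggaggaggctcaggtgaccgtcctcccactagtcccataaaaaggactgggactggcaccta

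The C/EBP motif was found in Saa2, Saa3, Lcn2, Orm2 and Fgb, that is in 5 of the 7 measured members with an entry, and in 9.56% of all 32851 promoters of this length. It lay 183 to 176 bases before the start of Saa2, 99 to 92 before that of Saa3, 216 to 209 before that of Lcn2 and 120 to 113 before that of Orm2. The STAT motif was found in Hamp, Apcs and Fgb, and in 7.02% of all promoters. The promoters of Hamp and Hamp2 were identical at 89.7% of aligned positions. Both held the STAT motif TTCTTGGAA, 97 to 89 bases before the start of Hamp and 94 to 86 before that of Hamp2. The BMP response element, present in 9.59% of promoters, was found in Hamp only, 109 to 104 bases before its start, and its letters did not occur in this window of Hamp2. No member held an exact match to the NF-kB motif, which 3.9% of promoters held. Saa1 and Saa2 were identical at 94.8% of aligned promoter positions, against 51.8% for Saa2 and Saa3. Whether the Saa2 probe set also reads Saa1 RNA, or those of Orm1 and Orm2 each other's or that of Orm3, was not tested. A match is a description of these letters and was not tested for binding.

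The members were expressed in different places. Fgb, Hamp and Apcs were liver genes: their mean log2 intensity over 39 liver arrays was 14.06 (SD 0.158), 13.93 (SD 0.264) and 10.69 (SD 0.522), while over 36 fat arrays it was 4.31, 4.82 and 3.82, all below the median gene of fat at 6.32. Saa2 was likewise below the median gene in fat, at 3.90 (SD 0.207), and averaged 8.25 (SD 1.79) in liver. Between chow wild-type vehicle groups of 5 arrays each, 8 of 9 members differed between the tissues (liver minus fat), where 79.4% of all genes did. Fgb was higher in liver by 9.56 ± 0.178 (log2, SE) and Hamp by 9.09 ± 0.138. Apcs was higher by 6.68 ± 0.224, Saa2 by 3.30 ± 0.700, Orm2 by 2.93 ± 0.577 and Orm1 by 1.75 ± 0.198. All of these but Orm1 were dim in fat, with mean levels between the percentiles 14.4 (Apcs) and 30.4 (Hamp) of all genes, so that their differences can be understated. Haptoglobin, which captures free haemoglobin, was the member that missed the threshold: its log2 difference was 0.13 with a 95% interval of -0.07 to 0.33 (adjusted p = 0.233), and its mean level was 14.24 in liver and 14.01 in fat. These levels lay at percentiles 99.96 and 99.95 of all genes, and whether the signal saturates there was not tested.

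Saa3 and Lcn2 were higher in fat in the deposited values. The log2 difference, liver minus fat, was -1.08 ± 0.432 for Saa3 (adjusted p = 0.01995) and -2.07 ± 0.832 for Lcn2 (adjusted p = 0.0204). Over all genes the median of this difference was -0.50, since fat arrays were brighter. After each array was centred on its median, the median over all genes was 0.21, Saa3 stood at -0.37 (adjusted p = 0.430), Lcn2 at -1.36 (adjusted p = 0.127) and Hp at 0.84 (adjusted p = 6.3e-11). Quantile normalization put Saa3 at -0.09 (adjusted p = 0.859) and Lcn2 at -1.20 (adjusted p = 0.185). The calls on Saa3 and Lcn2 therefore held in the deposited values and under neither other scaling. Hp was called only with arrays centred. Leaving out single arrays left 6 to 8 members called.

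In fat, Saa3 answered the diet with the largest difference among the members. In log2 intensity the 5 chow wild-type vehicle arrays read 7.29, 8.49, 8.03, 7.02 and 6.98, and the 5 high-fat wild-type vehicle arrays read 9.93, 9.23, 10.97, 10.57 and 10.97. Every high-fat array lay above every chow array, and the difference was 2.77 ± 0.466 (95% interval 1.82 to 3.72), a 6.83-fold rise (adjusted p = 3.636e-05). Orm2, an orosomucoid that binds small lipophilic molecules in plasma, rose as well. Its chow arrays read 3.94, 3.45, 4.04, 3.31 and 3.81 and its high-fat arrays 4.56, 5.13, 5.67, 5.27 and 4.76, again without overlap. The rise was 1.37 ± 0.204 (log2, SE), or 2.58-fold (adjusted p = 8.409e-06), in a probe set that on every array was dimmer than the median gene of fat.

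Orm1 and Hp, both bright in fat, rose by less. Hp read 13.83, 14.24, 14.17, 13.83 and 13.98 on chow and 14.31, 14.27, 14.47, 14.27 and 14.43 on the high-fat diet, so the groups were close but did not overlap. The rise was 1.27-fold (log2 difference 0.34 ± 0.115, adjusted p = 0.0275). Orm1 overlapped between the diets, with 11.18, 11.39, 11.75, 11.01 and 11.36 on chow and 11.24, 12.08, 12.39, 11.77 and 12.31 on the high-fat diet, and rose 1.54-fold (log2 difference 0.62 ± 0.209, adjusted p = 0.0269). In all, 4 of 9 members were called, all higher, where 24.5% of all genes were called and 12.1% were called higher. Groups without overlap were seen for 3 members and for 16% of all genes. Saa3 and Orm2 were called in each of the 10 fits that left out 1 array, whereas Hp and Orm1 were each called in 5. Hp was lost without high-fat array 4 or 6 or chow array 1, 4 or 5, and Orm1 without high-fat array 3, 4 or 6 or chow array 1 or 4.

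The other 5 members did not pass the threshold in that comparison. Fgb differed by -0.32 (95% interval -0.79 to 0.16), Hamp by -0.20 (-0.49 to 0.09), Saa2 by -0.15 (-0.42 to 0.12) and Apcs by -0.01 (-0.16 to 0.15). These 4 are the members below the median gene in fat on average, apart from Orm2. Lcn2, a siderophore-binding lipocalin, differed by -0.46 with a wide interval of -1.91 to 0.99.

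**Figure D1:**
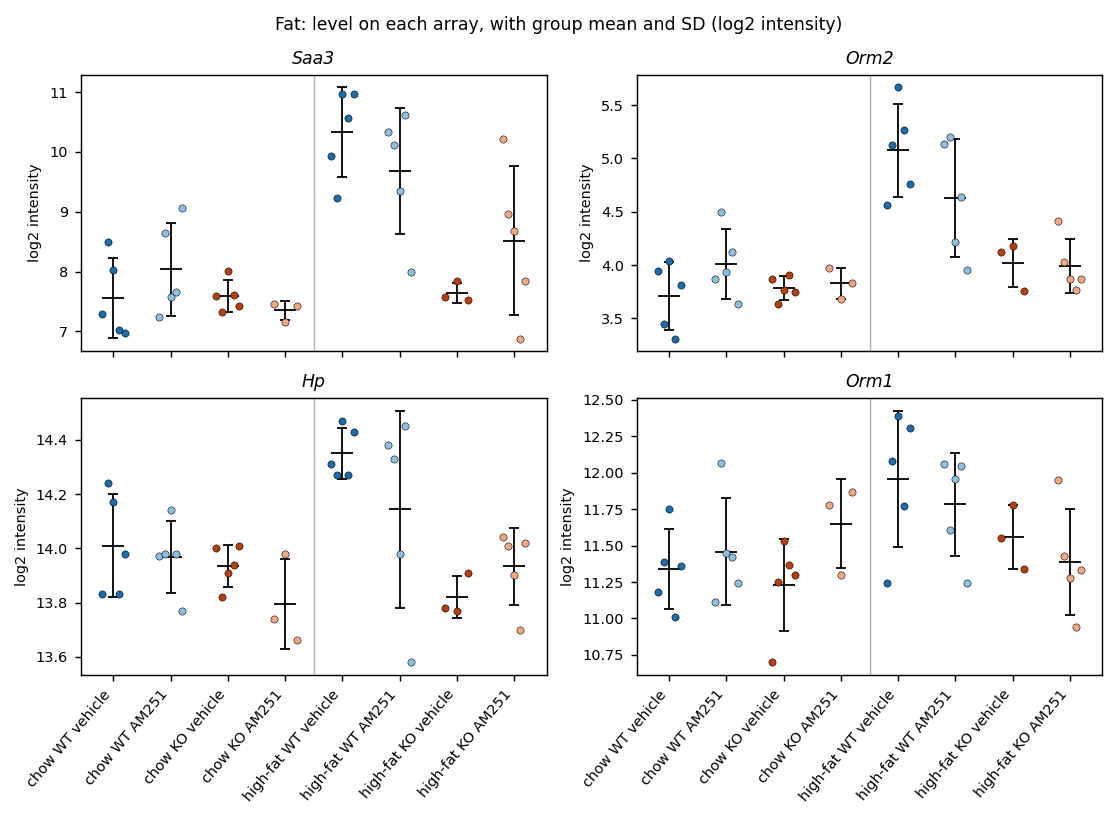
Log2 intensity in fat of Saa3, Orm2, Hp and Orm1 (y axes), 1 point per array, for each of the 8 groups of diet, genotype (WT, wild-type; KO, knockout) and treatment (x axis), with the group mean and SD as bars. The 5 high-fat wild-type vehicle arrays of Saa3 sit between 9.23 and 10.97, all above the 5 chow wild-type vehicle arrays, and the 3 high-fat knockout vehicle arrays sit between 7.53 and 7.84.

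On the high-fat diet, fat of knockout mice held less of 3 of the 4 transcripts that the diet had raised. Both comparisons used the same 5 high-fat wild-type vehicle arrays, so a high reading there enters both and they are not independent. The gene lists below share these arrays too. The 3 high-fat knockout vehicle arrays of Saa3 read 7.57, 7.84 and 7.53, below all 5 wild-type arrays, and the difference, knockout minus wild-type, was -2.68 ± 0.538 (6.42-fold lower, adjusted p = 0.000584). Orm2 read 4.12, 4.18 and 3.76 in the knockout and fell by 1.06 ± 0.235 on the log2 scale (2.08-fold lower, adjusted p = 0.00165). Hp read 13.78, 13.77 and 13.91 and fell by 0.53 ± 0.133 on the log2 scale (1.45-fold lower, adjusted p = 0.00465). None of these 3 members overlapped between the genotypes, and 21.3% of all genes did not. The count of 3 of 9, all lower, stood beside 15.9% of all genes called and 8.7% called lower, and it was 3 in each of the 8 fits without 1 array. Orm1 read 11.55, 11.78 and 11.34 in the knockout and missed the threshold at -0.40 (95% interval -0.89 to 0.09, adjusted p = 0.304).

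In knockout fat the diet gave no call on a member, in a comparison of 3 high-fat with 5 chow arrays. Wide intervals, as for Saa3, leave room for a change. Saa3 read 7.59, 7.32, 8.01, 7.61 and 7.43 in the 5 chow knockout vehicle arrays, and its difference, high-fat minus chow, was 0.06 (95% interval -1.04 to 1.15). The difference was 0.24 (-0.24 to 0.71) for Orm2, -0.12 (-0.39 to 0.15) for Hp and 0.33 (-0.17 to 0.82) for Orm1. In limma 0 of 9 members were called, and 0 were at an unadjusted p under 0.05, where 0.00522% of all genes were called. The genotypes gave no call on chow either: 0 of 9 members passed in limma, where 0.0575% of all genes did, and Apcs, at 0.17, was the 1 member at an unadjusted p under 0.05. Neither comparison gave a call under any of the other settings or in any fit without 1 array.

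The difference between those diet effects was tested directly. The high-fat effect in wild-type fat exceeded that in knockout fat by 2.71 ± 0.712 for Saa3 (log2, SE, adjusted p = 0.0181) and by 1.13 ± 0.311 for Orm2 (adjusted p = 0.0242). For Hp it was 0.46 ± 0.176 (adjusted p = 0.115) and for Orm1 0.29 ± 0.319 (adjusted p = 0.669). With 2 of 9 members called, all genes stood at 6.34%. Both calls held in 17 of 18 fits without 1 array. They were lost without high-fat knockout array 44, where the adjusted p was 0.0506 for Saa3 and 0.0905 for Orm2.

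**Figure D2:**
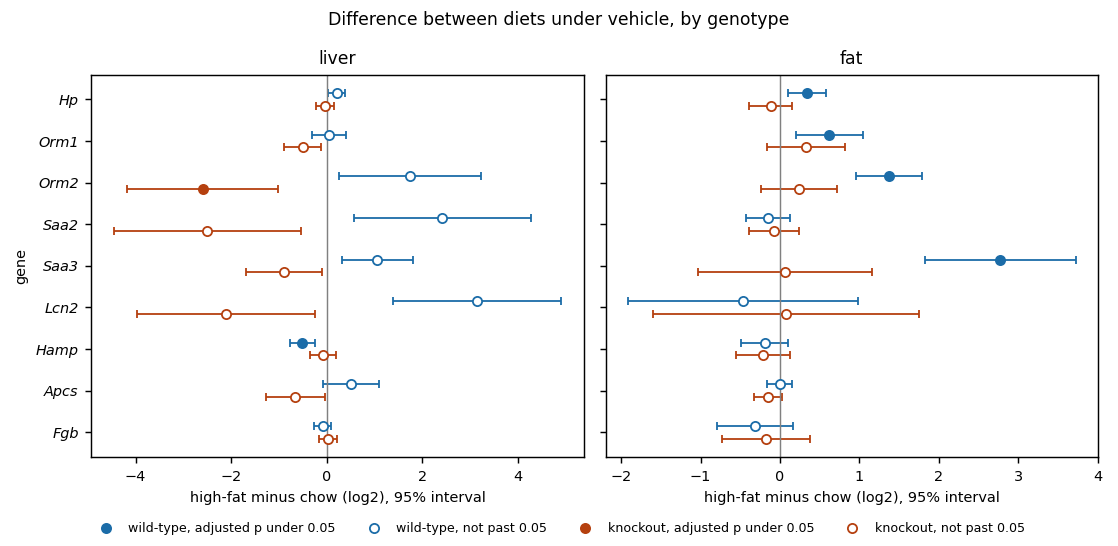
High-fat minus chow difference in log2 intensity (x axes) with its 95% interval for each of the 9 members (y axis), in wild-type and knockout vehicle mice, for liver (left) and fat (right), with filled points for an adjusted p under 0.05. In fat Saa3 lies at 2.77 in wild-type and 0.06 in knockout mice, and in liver Orm2 lies at 1.75 in wild-type and -2.59 in knockout mice.

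Macrophage genes moved beside these members in fat. Of 9 macrophage genes, 8 were higher in high-fat than in chow wild-type vehicle fat, among them Itgax by 3.17 ± 0.403, Cd84 by 2.87 ± 0.358 and Mpeg1 by 2.69 ± 0.334, and 8 were lower in the high-fat knockout. Of all genes 24.5% were called by diet (12.1% higher) and 15.9% by genotype (8.7% lower). The summed intensity of the list was 7740 to 19870 in high-fat wild-type vehicle arrays, 3823 to 5108 in chow wild-type, 3977 to 4256 in high-fat knockout and 3560 to 4767 in chow knockout arrays. Mesothelial genes moved the other way, with 4 of 6 lower in that comparison and 5 of 6 higher in the high-fat knockout. In whole fat, more cells of a type and more RNA per cell cannot be told apart, and the part of these cells in the rise of Saa3, Orm2, Hp and Orm1 was not tested. Neutrophil genes were mixed, with S100a8 higher by 2.03 ± 0.429, Csf3r higher by 0.41 ± 0.121, and Retnlg and Elane lower, of 10 measured.

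Of 19 other acute phase genes measured in fat, 2 rose with the high-fat diet, 2 fell and 15 did not pass, with a median difference of -0.09 against 0.02 over all genes. Il1rn, the interleukin-1 receptor antagonist, rose by 2.34 ± 0.376 and Cfb, complement factor B, by 0.58 ± 0.141, while ceruloplasmin (Cp) fell by 0.98 ± 0.227 and Itih4 fell by 1.00 ± 0.246, all on the log2 scale. Of 7 negative acute phase genes, whose plasma proteins decline in inflammation, Alb, Rbp4, Trf and Pon1 fell and Ttr rose. Of 15 cytokine and receptor genes, 5 rose: Tnfrsf1b by 0.92 ± 0.191, Osmr by 0.51 ± 0.116, Il1r2, Tnf and Lif. Of 16 signalling genes 5 rose, including Socs3, a STAT3 target, by 0.42 ± 0.156 and Cebpb by 0.48 ± 0.139, and Cebpa and Nr3c1 fell. In the high-fat knockout, Il1rn fell by 2.45 ± 0.435, Socs3 fell by 0.98 ± 0.181, and 6 of 15 cytokine and receptor genes were lower. Beside these counts, 24.5% of all genes were called by diet (12.1% higher) and 15.9% by genotype (8.7% lower). Ttr was dim in fat, at a mean of 3.81 (percentile 14.2 of all genes). Itih4, Alb, Pon1, Il1r2, Tnf, Lif and Socs3 also averaged below the median gene of fat, which limits what their differences can show. Among 8 receptors of acute phase proteins, Tlr2 and P2rx7 rose on the high-fat diet and Slc22a17, a receptor of lipocalin 2, fell by 0.75 ± 0.107.

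Within groups, Saa3 in fat varied with the macrophage genes. Over 36 fat arrays, deviations from the group mean of Saa3 correlated with those of the mean macrophage level at Pearson's r = 0.596 and Spearman's rho = 0.472 (adjusted permutation p = 0.00615 and 0.0624, over 30 relations of members with marker lists), and at r = 0.418 without the 2 arrays farthest from the median. Hp gave r = 0.559 and rho = 0.506 with the same list. Among the members, Orm1 deviated with Saa3 (r = 0.611, rho = 0.596) and with Orm2 (r = 0.588, rho = 0.505), over 36 pairs of members. Lcn2 gave r = 0.227 with Saa3 (adjusted permutation p = 0.457) and r = 0.114 with the macrophage list.

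Lcn2 in fat varied between mice rather than between groups. Group means ran from 7.54 to 8.91, and only 11.8% of the variance of Lcn2 over the 36 arrays lay between groups, against 69.2% for Saa3 and 70.3% for Orm2. Chow wild-type vehicle arrays read 10.36, 9.78, 7.05, 6.85 and 8 and chow knockout vehicle arrays 10.54, 6.85, 8.30, 7.30 and 10.53, a range of 11.4-fold and 12.9-fold within the group. High-fat wild-type vehicle arrays lay closer together, at 8.13, 7.67, 8.69, 7.60 and 7.63. The genes most like Lcn2 over all 36 fat arrays were Acsbg1 (r = 0.977), Mmp7 (0.968), Calml3 (0.965), Dynlrb2 (0.964) and Cldn2 (0.964). Mmp7, a matrix metalloproteinase, and Cldn2, a tight junction claudin, are known from epithelia. Dynlrb2, a dynein light chain, read 5.62 to 9.40 within the chow wild-type vehicle group alone. Epididymis genes, markers of the organ this fat depot adjoins, gave r = -0.022 and rho = -0.268 with Lcn2 for the mean of 5 genes and deviations from group means. Of these 5, Lcn8, Gpx5 and Rnase10 varied little in fat (SD 0.117, 0.194 and 0.135). The mean therefore reads mainly Lcn5 and Adam7 (SD 1.07 and 1.14), and it cannot show whether other epithelium went with Lcn2. What set Lcn2 apart between mice was not tested.

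**Figure D3:**
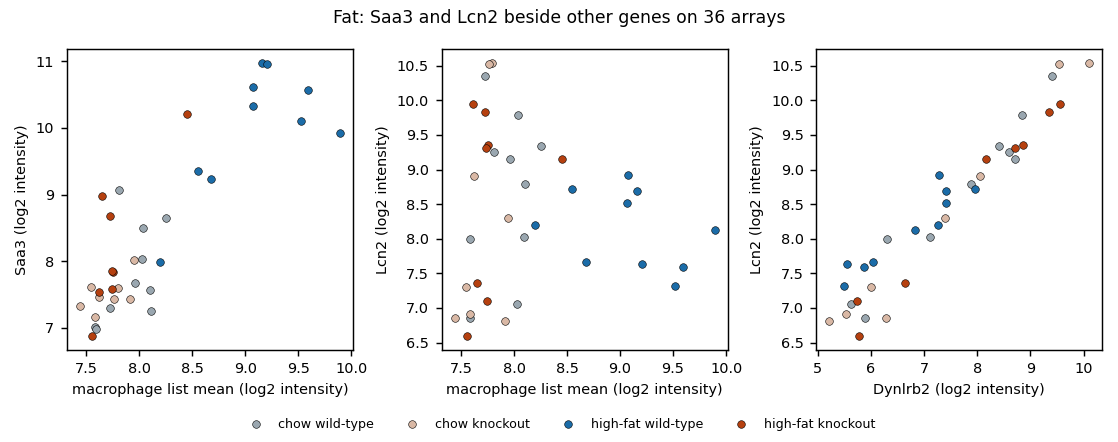
Log2 intensity in fat of Saa3 (left) and Lcn2 (middle) against the mean of 9 macrophage genes, and of Lcn2 against Dynlrb2 (right), 1 point per array, 36 arrays coloured by diet and genotype. High-fat wild-type arrays of Saa3 extend to the upper right, up to 10.97, while Lcn2 ranges from 6.60 to 10.54 without following the macrophage genes and lies close to a line with Dynlrb2 (r = 0.964).

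The genes most like the other members of largest spread in fat differed from those of Lcn2. Saa3 was most like Ubd (r = 0.902 over 36 arrays), Cela1 (0.901) and Tfr2 (0.894), and Orm2 was most like Stambpl1 (0.913), Cryab (0.912) and Cela1 (0.910). For Orm1 the leading gene was Rexo2 (0.852). These r values include the differences between groups and describe only these arrays.

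In liver the members moved in single mice. Lcn2 read 13.29, 9.16, 7.69, 7.18 and 8.18 in the 5 chow knockout vehicle arrays, a 69.1-fold range, and 11.98, 11.20, 7.80, 8.31 and 8.13 in the 5 high-fat wild-type vehicle arrays, an 18.1-fold range. Saa2 read 13.63, 10.87, 8.55, 8.19 and 8.76 in the same knockout arrays and 12.75, 10.14, 8.47, 8.55 and 8.45 in the same wild-type arrays. The high values came from the same mice: chow knockout array 15 was the highest of its group for 9 of 9 members, and so was high-fat wild-type array 1. Chow wild-type array 1 was highest for 8 of 9, and AM251-treated high-fat wild-type array 38 for 7 of 9. Even Apcs, the pentraxin that is a main acute phase reactant of mice, read 13.23 on array 15 against 10.59 to 10.85 on the other 4 arrays of that group.

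**Figure D4:**
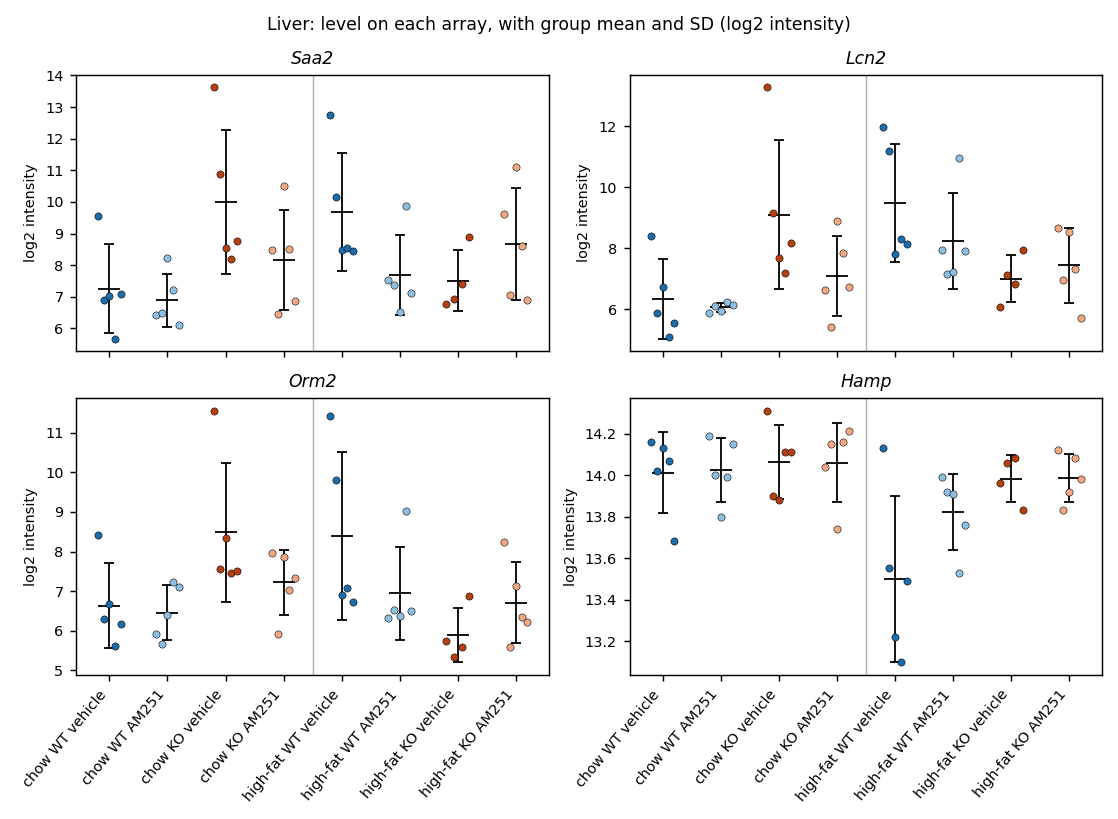
Log2 intensity in liver of Saa2, Lcn2, Orm2 and Hamp (y axes), 1 point per array, for each of the 8 groups of diet, genotype (WT, wild-type; KO, knockout) and treatment (x axis), with the group mean and SD as bars. The highest point of Lcn2, at 13.29, belongs to the chow knockout vehicle group, whose other arrays lie between 7.18 and 9.16, and the lowest points of Hamp belong to the high-fat wild-type vehicle group.

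With vehicle, the diet effect on 4 of these members differed between genotypes in liver. The high-fat minus chow difference was larger in wild-type than in knockout liver by 5.25 ± 1.27 for Lcn2 (log2, SE, adjusted p = 0.0140), by 4.91 ± 1.33 for Saa2 (adjusted p = 0.0283), by 4.34 ± 1.07 for Orm2 (adjusted p = 0.0158) and by 1.96 ± 0.537 for Saa3 (adjusted p = 0.0303). The value of Lcn2 was the highest of all 19147 genes, of which 4.17% were called. Hamp gave -0.44 ± 0.188 (adjusted p = 0.194), Apcs 1.16 ± 0.421 (adjusted p = 0.112) and Orm1 0.55 ± 0.258 (adjusted p = 0.237). Lcn2 and Orm2 were called in each of the 19 fits without 1 array, and Saa2 and Saa3 in 13 each. Without both chow knockout array 15 and high-fat wild-type array 1, Lcn2 stood at 3.58 (adjusted p = 0.0475), Orm2 at 2.82 (adjusted p = 0.0551), Saa2 at 3.24 (0.106) and Saa3 at 1.16 (0.1002), and Hamp, at -0.65 (adjusted p = 0.0202), passed the threshold in the opposite direction. With only the 4 compared groups in the fit, or without chow knockout arrays 15 and 17, 0 of 9 were called.

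The 4 groups behind that difference lay in opposite order in the 2 genotypes. Wild-type Lcn2 averaged 6.34 on chow and 9.48 on the high-fat diet, with chow arrays at 8.41, 5.88, 6.74, 5.10 and 5.56. Knockout Lcn2 averaged 9.10 on chow and 6.99 on the high-fat diet, with high-fat arrays at 6.07, 7.13, 6.84 and 7.93. The 2 groups of each pair overlapped, for Lcn2 and for Saa2. Orm2 was ordered alike, with means of 6.64 and 8.38 in wild-type and of 8.48 and 5.89 in knockout liver.

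Taken 1 at a time, these liver comparisons called 1 member or none. High-fat against chow in wild-type vehicle liver called Hamp alone, lower, among 1.69% of all genes. Lcn2 was 3.15 ± 0.872 higher with an adjusted p of 0.0511, and Saa2 (2.42), Orm2 (1.75) and Saa3 (1.06) had adjusted p of 0.210, 0.277 and 0.153. Saa3 and Apcs did not overlap between these groups, as 2.91% of all genes did not. In knockout vehicle liver the diet lowered Orm2 by 6.04-fold (log2 difference -2.59 ± 0.780, adjusted p = 0.0193), where 17% of all genes were called. Saa2 at -2.50 (adjusted p = 0.0692), Orm1 at -0.51 (0.0580) and Lcn2 at -2.11 (0.108) missed the threshold. The call on Orm2 was lost without chow knockout array 15 (-1.83, adjusted p = 0.0821), or without high-fat knockout array 41 or 42.

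Knockout against wild-type liver on chow called Lcn2, the transcript of an iron-withholding protein, 6.79-fold higher (log2 difference 2.76 ± 0.872, adjusted p = 0.0465), where 6.77% of all genes were called. All 9 members had a positive difference, with a median of 0.79 against 0.04 over all genes. Chow knockout array 15 was the highest of its group for 9 of 9 members, so these signs are not separate findings. Saa2 at 2.74 (adjusted p = 0.0619), Saa3 at 1.00 (0.0959), Apcs at 0.79 (0.0929) and Orm2 at 1.85 (0.128) missed the threshold. Without array 15 Lcn2 stood at 1.71 (adjusted p = 0.208), and it was called in 3 of 10 fits without 1 array. On the high-fat diet 0 of 9 members were called between the genotypes in limma, 6 were at an unadjusted p under 0.05, and 1.19% of all genes were called. Orm2 differed by -2.50 (95% interval -4.08 to -0.91), Lcn2 by -2.49 (-4.36 to -0.62) and Saa2 by -2.17 (-4.13 to -0.21) there. Fgb read 14.17, 14.20, 14.31 and 14.22 in the knockout arrays and 14.12, 13.90, 13.99, 13.78 and 13.86 in the wild-type arrays, without overlap, as for 5.66% of all genes. Its difference was 0.29 ± 0.0953 (adjusted p = 0.144), and it passed the threshold with array weights (adjusted p = 0.0229), without the 2 arrays least like their tissue (0.0447) and without arrays 15 and 1 (0.0222).

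Of 19 other acute phase genes, the metallothioneins, which bind zinc and copper, were higher in the knockout beside Lcn2 in chow vehicle liver. Mt1 was higher in knockout than wild-type vehicle liver by 2.79 ± 0.573 (adjusted p = 0.00197) and Mt2 by 2.45 ± 0.677. Mt1 read 14.08, 11.86, 11.23, 10.58 and 11.65 in the knockout and 9.88, 8.93, 8.38, 9.52 and 8.73 in the wild-type arrays, so these groups did not overlap, and the highest was again array 15. In AM251-treated chow liver Mt1 read 10.99, 10.95, 10.06, 12.83 and 13.2 in the knockout. Wild-type arrays there read 8.32, 8.53, 8.29, 8.38 and 10.94, while 0 of 9 members were called between these genotypes. Knockout array 22, the lowest there for Mt1, was the highest for Hp, Lcn2, Orm1, Saa2 and Saa3. The interaction of diet and genotype called Orm3 (1.84 ± 0.500), Mt1 (3.04 ± 0.836) and Hpx, hemopexin (0.36 ± 0.106), all in the direction of Lcn2. The neutrophil gene S100a8 was called there too (1.62 ± 0.456). The summed intensity of 10 neutrophil genes was 296.8 to 456.2 in chow knockout, 260.6 to 304.9 in chow wild-type, 274.4 to 421.1 in high-fat wild-type and 251.0 to 268.4 in high-fat knockout vehicle liver, and the part of such cells in the values of Lcn2 was not tested. Among 15 cytokine and receptor genes Lifr, a receptor chain for leukaemia inhibitory factor, ran opposite (-1.86 ± 0.349). Il6 averaged 2.83 in liver and 3.41 in fat, below the median gene of each tissue.

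In liver 7 of 9 members, that is all but Hamp and Fgb, deviated together from their group means. Each of their pairs was positive over 39 arrays (adjusted permutation p at most 0.00127 for Pearson's r and 0.0155 for Spearman's rho), and the lowest pair, Apcs and Saa3, gave r = 0.574 and rho = 0.406. Lcn2 and Saa2 gave Pearson's r = 0.905 and Spearman's rho = 0.870 (adjusted permutation p = 2.77e-05 over 36 pairs), and r = 0.877 without the 2 arrays farthest from the median. Lcn2 and Orm2 gave r = 0.881 and rho = 0.769, and Lcn2 and Hp gave r = 0.857 and rho = 0.808. Hp thus followed the others although its within-group range was at most 1.57-fold. Hamp gave r = 0.265 and rho = 0.234 with Lcn2 (adjusted permutation p = 0.113) and r = 0.153 with Saa2. With Hp it gave r = 0.470 (adjusted permutation p = 0.00649) and with Orm2 r = 0.376 (0.0257). Fgb gave r = 0.246 and rho = 0.044 with Lcn2 (adjusted permutation p = 0.136) and r = 0.224 with Saa2. Higher values for Fgb were r = 0.602 and rho = 0.383 with Apcs and r = 0.515 and rho = 0.453 with Hamp. Fgb also gave r = 0.527 and rho = 0.450 with Orm1 (adjusted permutation p = 0.00119 and 0.00733). Its r was 0.495 with Hp (adjusted permutation p = 0.00494) and 0.368 with Orm2 (0.0283). The 7 members were set apart by these same correlations, and whether the pairs with Hamp or Fgb differ from the other pairs was not tested. Over all 39 arrays the genes most like Lcn2 were Hpx (r = 0.819) and Serpina3n (0.786), and those most like Orm2 were Hpx (0.850) and Orm3 (0.823), all of them acute phase genes. Saa2 was most like Cyb561 (0.746) and Saa3 most like Ptpn6 (0.732).

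**Figure D5:**
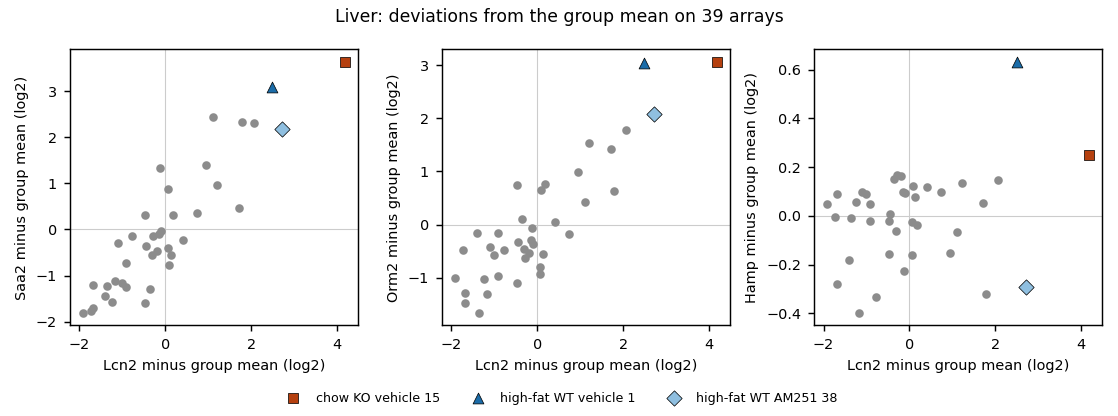
Deviation of Saa2, Orm2 and Hamp from the group mean (y axes, log2) against that of Lcn2 (x axes, log2) in liver, 1 point per array, 39 arrays, with 3 arrays of high Lcn2 marked by group and number. Saa2 follows Lcn2 with r = 0.905 and Orm2 with r = 0.881, and Hamp follows it with r = 0.265.

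Hepcidin was the member that the diet lowered in wild-type liver. Hamp read 14.16, 14.02, 14.13, 14.07 and 13.68 in chow wild-type vehicle arrays and 14.13, 13.55, 13.22, 13.10 and 13.49 in high-fat ones, with 1 high-fat array, array 1, among the chow values. The difference was -0.51 ± 0.129 (95% interval -0.78 to -0.25), or 1.43-fold lower (adjusted p = 0.0258). The call remained in 2 of 10 fits without 1 array, where the adjusted p ranged from 0.000549 to 0.109. It was lost with only the compared groups in the fit (adjusted p = 0.202). It was also lost with the sample number as a block (adjusted p = 0.145), where Lcn2 (adjusted p = 0.00886) and Saa2 (0.00318) were called higher. That block joins same-numbered mice of the 2 diets, which the labels do not pair, and 1 of 5 such pairs correlated over 0.1. Array 1 was the highest of its group for Lcn2 and Saa2 on either diet, so that fit cannot stand for paired mice. Knockout arrays stood at the chow level on the high-fat diet, at 13.96, 14.06, 14.08 and 13.83, and the difference from wild-type was 0.48 ± 0.137 (adjusted p = 0.0752). Without high-fat wild-type array 1, the array with the highest level of all 9 members in its group, that difference was 0.64 (adjusted p = 0.00234).

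Genes that act on hepcidin gave no call in the same wild-type diet comparison. Of 19 genes of hepcidin regulation and iron handling, 0 passed in wild-type vehicle liver in limma, beside 1.69% of all genes, and 3 were at an unadjusted p under 0.05. In high-fat knockout against chow knockout liver Hmox1, a haem-degrading enzyme, rose by 1.69 ± 0.323, Bmpr1a, a BMP receptor, rose by 0.60 ± 0.135 and Hfe fell by 0.44 ± 0.092, while Hamp differed by -0.08 (95% interval -0.36 to 0.20). In chow knockout against chow wild-type liver Tfrc, the transferrin receptor, fell by 1.16 ± 0.305 and Hfe rose by 0.30 ± 0.087, while Hamp differed by 0.05 (-0.21 to 0.31). In fat, where Hamp is dim, Hmox1 rose with the diet by 3.56 ± 0.540 and Tfr2 by 1.61 ± 0.261, beside 6 lower genes of the 19. In wild-type vehicle fat the diet called 24.5% of all genes.

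AM251 changed no member past the threshold. In limma 0 of 9 members were called in each of 8 strata of tissue, diet and genotype. Of all genes, 1.91% were called in high-fat wild-type liver, 1.11% in high-fat wild-type fat, 0.125% in chow knockout liver, 0.0157% in chow knockout fat, 0.0104% in high-fat knockout liver, and 0% in the other 3 strata. At an unadjusted p under 0.05 there were 3 members in high-fat wild-type liver, 1 in chow knockout liver, 1 in high-fat wild-type fat and 0 in the other 5. Among the other settings and the fits without 1 array, high-fat wild-type liver gave 1 member under some, and the other 7 strata gave 0. In high-fat wild-type liver Orm1 differed by -0.58 ± 0.177 (adjusted p = 0.088), Saa2 by -1.98 (95% interval -3.83 to -0.13) and Hamp by 0.33 (0.06 to 0.59). Array 38, at 10.95 for Lcn2 beside 7.14 to 7.95 on the other 4 arrays, widened the spread there.

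With all arrays, Hamp averaged 13.50 with vehicle and 13.82 with AM251 in high-fat wild-type liver and was not called. Without vehicle array 1, Hamp was 0.48 higher with AM251 (adjusted p = 0.0139). That array had the highest Hamp level of its group, 14.13, so leaving it out widens this difference by construction. Hamp2, the neighbouring copy of Hamp whose promoter is printed above, went the other way with all arrays kept. Hamp2 read 11.46, 10.64, 11.56, 10.78 and 10.23 with vehicle and 9.76, 10.21, 9.84, 9.09 and 9.63 with AM251, without overlap, and fell by 1.23 ± 0.238 on the log2 scale (adjusted p = 0.00149). Hjv, the hemojuvelin co-receptor of the BMP pathway, fell by 0.40 ± 0.110, and Lifr rose by 1.20 ± 0.239. Whether the 2 probe sets separate Hamp from Hamp2 fully was not tested.

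The members that the diet raised in fat gave no call with AM251 either. In high-fat wild-type fat the AM251 arrays of Saa3 read 10.33, 10.11, 9.35, 10.61 and 7.99, within the range of vehicle except for the last, and the difference was -0.66 (95% interval -1.60 to 0.29). Orm2 differed by -0.45 (-0.86 to -0.03, adjusted p = 0.322) and Hp by -0.21 (-0.44 to 0.03). Array 37 was low for Saa3, Orm2, Hp and Orm1 alike. The epididymis gene Lcn5 read 9.54 there, against 6.81 to 7.29 on arrays 33, 34 and 35. Lcn5 read more, 12.99, on array 36, which was the highest of the group for Saa3 and Hp but not for Orm2 and Orm1. The part of such tissue in the low values of array 37 was not tested. Of the listed genes, Bcl3 fell by 0.73 ± 0.135 and Nfkb2, an NF-kB subunit, fell by 0.51 ± 0.101. Aif1, 1 of 9 macrophage genes measured, fell by 0.64 ± 0.167, and a change of that list as a whole was not tested. The difference of the AM251 effect between genotypes called 0 of 9 members in each of 4 tests in limma, where 0.564% of all genes were called in high-fat liver, 0.407% in high-fat fat, 0.00522% in chow fat and 0% in chow liver, with Saa3 at -1.52 ± 0.712 (adjusted p = 0.443) in high-fat fat. At an unadjusted p under 0.05 there were 3 members in high-fat liver, 1 in high-fat fat and 0 on chow in both tissues, and none was called under the other settings.

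With AM251, the diet still raised Saa3 and Orm2 in wild-type fat. Saa3 was 1.64 ± 0.466 higher on the high-fat diet (adjusted p = 0.0216) and Orm2 0.62 ± 0.204 higher (adjusted p = 0.04996), where 9.55% of all genes were called. Leaving out single arrays kept Saa3 in 5 of 10 fits and Orm2 in 3, and with only the compared groups in the fit 0 of 9 were called. Knockout fat on AM251 and the high-fat diet read 10.21, 8.97, 8.67, 6.88 and 7.84 for Saa3, the widest spread of any fat group. Its difference from wild-type mice was -1.16 ± 0.466 for Saa3 (adjusted p = 0.0913) and -0.64 ± 0.204 for Orm2 (adjusted p = 0.0289), where 15.2% of all genes were called, and the latter call remained in 3 of 10 fits without 1 array.

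The liver comparisons among AM251-treated mice gave no call in limma. High-fat against chow wild-type liver called 0 of 9 members, where 1.96% of all genes were called, and 4 members were at an unadjusted p under 0.05. Lcn2 was 2.18 higher there (95% interval 0.42 to 3.95) without overlap between the diets, as was Hp at 0.20 (0.03 to 0.37), and 3.85% of all genes did not overlap. Knockout against wild-type liver on the high-fat diet called 0 of 9, where 2.3% of all genes were called, and 2 members were at an unadjusted p under 0.05, Saa3 at -1.04 (-1.79 to -0.30) and Orm1 at 0.48 (0.13 to 0.84). Chow knockout against wild-type liver (0.324% of all genes called) and high-fat against chow knockout liver (2.64%) called 0 of 9, with 0 at an unadjusted p under 0.05. In fat, chow knockout against wild-type (3.39%) and high-fat against chow knockout mice (0.81%) called 0 of 9, with 0 and 1 at an unadjusted p under 0.05, the 1 being Saa3 at 1.16 (0.07 to 2.26). Under the other settings the first 2 of these comparisons gave 0 or 1 member and the rest gave 0.

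The diet effect differed between liver and fat for 2 members. The high-fat effect in wild-type vehicle mice, liver minus fat, was 3.61 ± 1.18 for Lcn2 (adjusted p = 0.0280) and -1.72 ± 0.611 for Saa3 (adjusted p = 0.0475), and 14.2% of all genes were called. Saa2 at 2.57 (adjusted p = 0.0712) and Orm1 at -0.58 (0.173) missed the threshold. The call on Lcn2 remained in 15 of 20 fits without 1 array and that on Saa3 in 5. The difference of the AM251 effect between the tissues on the high-fat diet called 0 of 9 members in limma, with 1 member, Saa2 at -2.07, at an unadjusted p under 0.05 and 1.72% of all genes called.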

How the data were processed

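Per the submitters' processing notes, the authors made the deposited values, a linear intensity for each probe set, with RMA (robust multi-array average: background correction, normalization and probe summary), and its version is not given in the sources used here. Whether liver and fat arrays were normalized together is likewise not given, which bears on differences between the tissues. Biotin-labelled cRNA had been hybridised to one-colour custom mouse arrays, per the labels. Of 38385 probe sets, 24478 had 1 symbol in the platform annotation, 65 had several and 13842 were not listed, and the latter 2 kinds were left out. For each of 19147 genes the probe set of highest mean in the tissue was used.

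Log2 values were analysed in R 4.3.3 using limma 3.58.1 (lmFit, eBayes, 1 mean per group, all arrays of a tissue, or all 75 arrays for differences between tissues). Two-sided moderated tests were adjusted over all genes by the Benjamini-Hochberg method (threshold 0.05), in 33 comparisons and 297 tests of members. Differences are log2, with the standard error of the fit. Levels are log2 intensity with SD over arrays, and the number of arrays limits their precision. Correlations of deviations from group means used 100000 permutations (scipy 1.17.1), adjusted over each family. The genes named beside the members were those past the threshold in the listed gene groups and those with the highest correlation with the members of largest spread. Members, lists and tests were chosen with earlier results of these data known. Promoter letters came from RefSeq (GRCm38.p6), in which 7 of 9 measured members had an entry. Scripts were tested on simulated data. Alternatives were quantile normalization, array centring, only the compared groups, the mean of all probe sets, brighter genes only, an offset of 16, array weights, blocks, leaving out each array, and 2 sets of arrays left out after seeing the data. Same-numbered arrays of the 2 tissues deviated together little over all genes (30 pairs, r from -0.126 to 0.203, 6 over 0.1). For single members over these pairs, r ran from -0.534 (Orm1) to 0.462 (Lcn2). These values cannot show whether such arrays came from 1 mouse, and the labels do not say. The numbers were not used to pair samples in the main fits.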

Additional observations from a re-analysis of the deposited data

Results flagged for a closer look

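Of 126 sets of a member in a group of 4 or 5 arrays, 15 had an array far from the others, where chance gives about 1 in 20, or 6.3. Chow knockout vehicle liver array 15 was far above its group for Apcs (13.23), Hp (14.70), Orm1 (14.02) and Orm2 (11.55). High-fat wild-type AM251 liver array 38 was far above for Lcn2 (10.95) and Orm2 (9.03), and high-fat wild-type vehicle array 1 for Saa3 (9.37). Saa3 also had a distant array in high-fat knockout vehicle liver (array 40, 6.85), in chow wild-type AM251 liver (array 11, 7.54) and, as the lowest, in chow wild-type vehicle liver (array 4, 6.25). The rest were Apcs in chow knockout AM251 liver (array 23, 11.13), Orm1 in high-fat knockout AM251 liver (array 46, lowest, 12.69), and Fgb in chow wild-type vehicle liver (array 2, lowest, 13.89), chow knockout vehicle fat (array 19, 5.51) and high-fat knockout AM251 fat (array 46, 4.63).

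The difference itself passed the test for 8 pairs of effects. The high-fat effect was larger in wild-type than in knockout vehicle liver for Lcn2 (5.25), Saa2 (4.91), Orm2 (4.34) and Saa3 (1.96), and in fat for Saa3 (2.71) and Orm2 (1.13). It differed between liver and fat of wild-type vehicle mice for Lcn2 (3.61) and Saa3 (-1.72). Of all genes, 4.17% were called in the liver test, 6.34% in the fat test and 14.2% in the test between tissues. With only the compared groups in the fit, or without chow knockout arrays 15 and 17, the liver test called no member. Most fits without 1 array lost the call on Saa3 between tissues.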

How the results depend on the processing

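Counts are members called of 9, with the count as reported after "from". With only the compared groups in the fit, the count was 0 for diet in knockout (from 1) and wild-type (from 1) vehicle liver, for diet in wild-type AM251 fat (from 2), for genotype in chow vehicle liver (from 1) and high-fat AM251 fat (from 1) and for the liver interaction of diet and genotype (from 4), and 1 for diet in wild-type AM251 liver (from 0). Without the 2 arrays least like their tissue these counts were 0, 2, 0, 0, 0 and 0, and 1 for genotype in high-fat vehicle liver and for AM251 in high-fat wild-type liver (both from 0). Among genes above the median level they were 2 for diet in knockout and in wild-type vehicle liver and for genotype in chow vehicle liver, 1 for diet in wild-type AM251 fat, for the fat interaction (from 2) and for genotype in high-fat vehicle liver, and 0 for genotype in high-fat AM251 fat. Quantile normalization gave 2 for diet in vehicle liver of each genotype and 1 for diet in wild-type AM251 fat. The mean of all probe sets, and the offset of 16, gave 1 for that comparison and 0 for genotype in chow vehicle liver. Array weights gave 0 for diet in knockout and 2 for diet in wild-type vehicle liver, 0 for genotype in chow and 2 in high-fat vehicle liver, 4 for genotype in high-fat AM251 fat, and 1 each for genotype in high-fat AM251 liver, diet in wild-type AM251 liver and AM251 in high-fat wild-type liver. Without chow knockout array 15 and high-fat wild-type array 1 of liver, chosen after seeing the data, the interaction gave 2 (Lcn2 higher and Hamp lower), genotype 0 on chow and 2 on the high-fat diet, and 1 each for genotype in high-fat AM251 liver and AM251 in high-fat wild-type liver. With arrays centred, the tissue difference of the diet effect gave 1 (from 2). The cause of these changes was not tested.

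With the sample number as a replicate block, diet called 2 members in wild-type vehicle fat (from 4) and 2 in liver (Lcn2 and Saa2, both higher, from 1, Hamp, which was lost), and the block with the animal number (consensus correlation 0.0387) moved no count by more than 1.5 times. Same-numbered samples of the 2 diets, which the labels do not pair, seldom deviated together (liver 1 of 5 and fat 0 of 4 pairs correlated over 0.1).

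Leaving out 1 array gave 6 to 8 members for liver against fat (8 as reported), 2 to 4 for diet in wild-type vehicle fat and for the liver interaction, 3 to 3 for genotype in high-fat vehicle fat, 0 to 2 for the fat interaction and for the tissue difference of the diet effect, and 0 to 3 for diet in knockout vehicle liver and wild-type AM251 fat and for genotype in chow vehicle liver and high-fat AM251 fat. It gave 0 to 1 for diet in wild-type vehicle liver, genotype in high-fat vehicle liver and AM251 in high-fat wild-type liver, and 0 to 0 for the other comparisons. Dim probe sets limit what Orm2, Saa2, Hamp, Apcs and Fgb can show in fat.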
